A study of Glycine max with 9 samples.

Results

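The genes described here are abundant seed transcripts that accumulated to their highest level in the soybean line Jack. They were chosen from the deposited table of 33779 genes by 3 values, namely a mean of 100 to 1000 FPKM over the 9 lines, a Z-score of at least 1.8 in Jack and a genomic span over 200 bp. FPKM stands for fragments per kilobase of transcript, scaled to the number of mapped reads, and a Z-score gives the position of a line among the 9 lines in units of the gene's own standard deviation on the log2 scale. The choice gave 113 genes, and 1 further gene that met these values was not analysed here. Since the Z-score in Jack chose the genes, it is given below as a description, and no test was made of it. Over all genes measured, 3.91% reached this Z-score in Jack, and in the 527 genes of the same level and span for 21.6%.

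Each of the 9 lines was represented by 1 RNA-seq library of whole seeds at the S6 stage of maturation, from plants raised in growth chambers under a common regime. By their labels, Jack has oil like commodity soybean oil, FAM94 is high in stearic acid, M23 is mid-oleic, and N0304-303-3 combines low palmitic, mid oleic and low linolenic acid. R02-6268F, R05-4256, R05-591 and R08-1450 are labelled as high in oil, and R95-1705 as high in protein. With 1 library per line, no value has a replicate error, no test between lines could be made, and a difference between lines cannot be told apart from a difference between libraries. The most abundant gene of the table was the 2S albumin precursor Glyma13g36400, followed by the glycinin genes Glyma03g32030, Glyma10g04280 and Glyma03g32020, which are storage proteins that mark the labelled tissue. Positions are those of the deposited table, on the Williams 82 genome with the Gmax_189 annotation that the authors aligned to, and a span runs from the first to the last base of a gene with its introns. The number of reads behind each gene's value is unknown, since the table holds no read counts. The paper does report reads per library, which differed between lines, and Jack had the smallest total length of transcripts covered. The bearing of this on the Z-scores was not tested. In whole seeds, a different share of a tissue and a different level per cell cannot be told apart.

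Ribosomes are built from ribosomal RNA and many different proteins, arranged in a small and a large subunit, and each protein is encoded in plants by a small family of nearly identical genes. Ribosomal protein transcripts are among the abundant transcripts of growing tissues, where they commonly vary together. Maturing soybean seeds also translate large amounts of storage protein, and at the S6 stage the cotyledons are filling with protein and oil.

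Most of the named genes in this set carry ribosomal annotations. Names were available for 26 of the 113 genes, and 15 of the 26 had ribosomal words in their annotation. These 15 had Z-scores in Jack from 2.02 to 2.34 and mean levels from 102 to 983 FPKM. They include Glyma02g11540, whose annotation names only a fold superfamily that also holds proteins outside the ribosome. The remaining 11 comprised 2 genes annotated as a ribonucleoprotein or a nucleic acid-binding protein, 1 translation factor, 1 protein folding gene, 6 genes of other functions and 1 gene without annotation. None of the named genes was annotated as a histone, a cytoskeletal protein, a component of the ubiquitin and proteasome system, an energy enzyme, or a protein of seed storage and maturation. These lists were small, holding between 0.250% and 2.70% of the 1998 genes of the main source of names, so that nothing can be read from a count of 0 among 26 genes. The names come from 2 sources that were selected by expression. One lists the 100 most abundant genes and named 6 members. The other lists genes past a Z-score of 2 and was used here for chromosomes 1 to 5 and the start of chromosome 6, where it named 20 members.

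On chromosomes 1 to 5, 20 members reached a Z-score of 2 in Jack, and all 20 had a name. Of these, 13 or 65.0% were ribosomal by annotation words, with Glyma02g11540 included. Among 18 other genes of the same abundance class named by the same source, 1 or 5.56% was ribosomal, and among all 1998 genes used from that source the share was 2.35%. Those 18 genes entered the source by a deviation other than an increase in Jack, so they passed an unlike filter. Among the 193 genes of the source with a Z-score of at least 2 in Jack, at any level and with members included, 32 or 16.6% were ribosomal. The contrast in annotation was described and not tested, as genes of one family are not independent of each other. Names were available for 3 of the 80 members past chromosome 5.

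**Figure D1:**
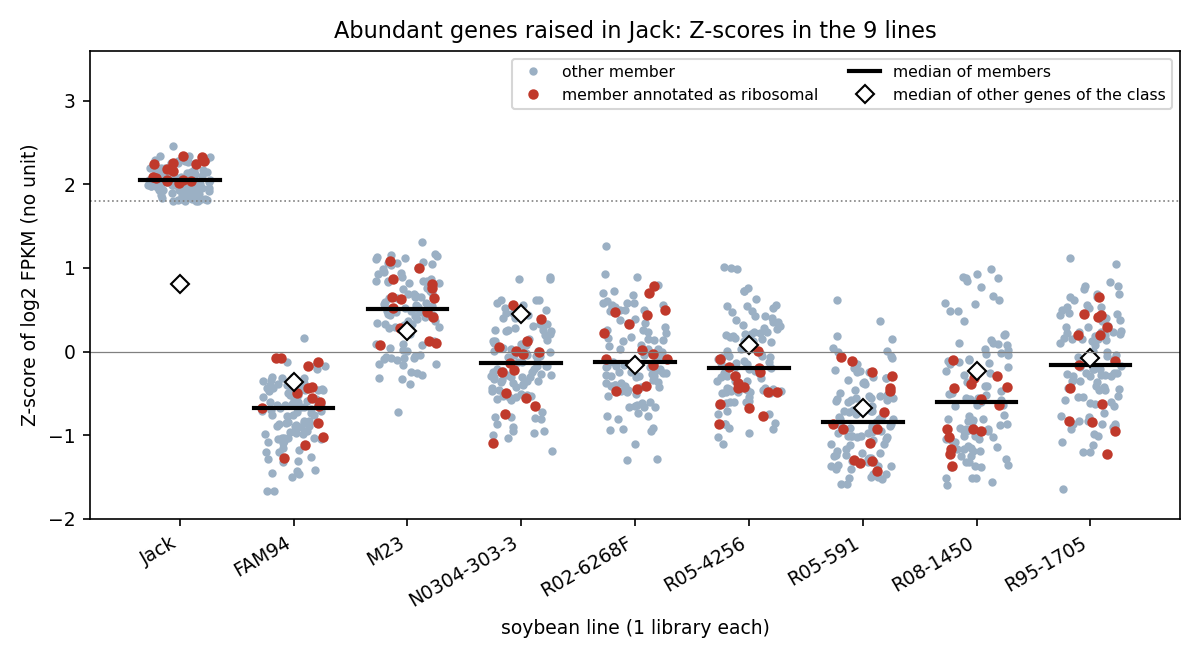
Z-score of log2 FPKM in each of the 9 lines (no unit) for the 113 abundant genes raised in Jack, with 1 point per gene, black bars at the median of the 113 genes, open diamonds at the median of the 413 other genes of the class, and a dotted line at the minimum of 1.8. The points in Jack lie from 1.8001 to 2.46, and no point of another line passes 1.31, while the diamond in Jack stands at 0.81.

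The Z-scores in Jack ranged from 1.8001 to 2.46 with a median of 2.05, where 2.67 is the largest value that 9 lines allow. A Z-score of 2, the cutoff used in the study, was reached by 68 of the 113 genes, and the other 45 lay between 1.8 and 2. The second highest line of each gene had a Z-score from 0.29 to 1.31 with a median of 0.75, so that the step from Jack to the next line had a median of 1.29. The step exceeded 1 in 87 genes. In 18 genes it was larger than the whole range of the other 8 lines. A minimum Z-score in Jack also limits how high the second line can stand, so the step is not independent of the choice. In 136 other genes of the same level and span, highest in Jack but below the minimum, the step had a median of 0.44. A Z-score states how far Jack stood apart relative to the spread of that gene and not by which factor, and the mean FPKM and the Z-scores together do not fix the FPKM of a line.

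Just inside the minimum lay Glyma03g27030 and 2 unnamed genes, with Z-scores of 1.8001, 1.8001 and 1.8003 in Jack. Just outside lay 3 unnamed genes, at 1.796 for the first of them and the next, and at 1.789 for the last. At the lower limit of level, the lowest member had a mean of 100.2 FPKM, and the nearest gene below had 99.9 FPKM with a Z-score of 2.16 in Jack. At the upper limit, the highest member had 983 FPKM, and the nearest gene above was Glyma17g04340 with 1169 FPKM and a Z-score of 1.88. The shortest member spanned 219 bp, and the 1 gene left out for its length spanned 183 bp.

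Jack was high in the abundance class as a whole. It was the highest line in 250 of the 527 class genes, or 47.4%, and the 413 genes of the class outside the set had a median Z-score of 0.81 in Jack. Over the whole table the median in Jack was -0.27 for genes with a mean of 1 to 10 FPKM, 0.28 for those of 10 to 100 FPKM and 1.11 for those of 100 to 1000 FPKM. Above 1000 FPKM it was 1.03, with 8 of 65 genes at 1.8 or more. The same minimum applied to the other lines within the class gave 14 genes in R08-1450, 6 in N0304-303-3, 3 in M23, 2 in R95-1705, 1 each in R02-6268F and R05-591, and 0 in FAM94 and R05-4256. When the median Z-score of each line over the class was subtracted and the genes were standardized again, 25 genes passed the minimum in Jack, all of them among the 113. They included 6 of the 15 ribosomal members. The part of this general level of Jack in the Z-scores of the members was not tested.

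**Figure D2:**
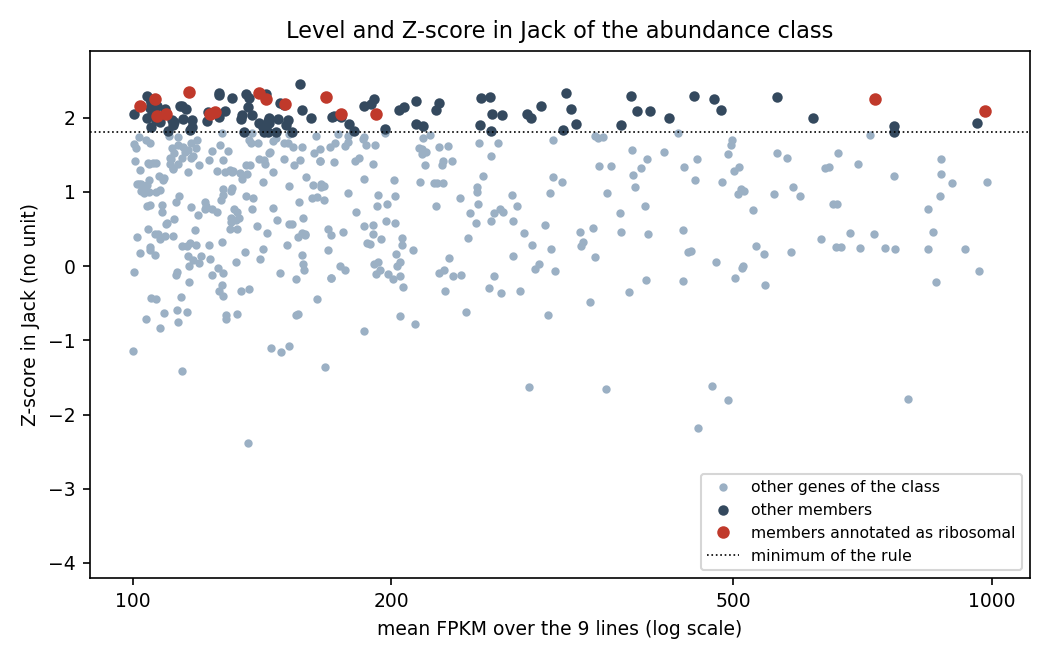
Mean FPKM over the 9 lines (log scale) against the Z-score in Jack (no unit) for the 113 members and the 413 other genes with a mean of 100 to 1000 FPKM and a span over 200 bp, with the members above the dotted line at 1.8 and the members annotated as ribosomal in red. Members occur at every level, from 100.2 to 983 FPKM, and most points below the line are still above 0, as 335 of the 413 other genes had a positive Z-score in Jack.

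The mean level of the 113 genes had a median of 147 FPKM, with quartiles at 117 and 227 FPKM. A mean below 200 FPKM was found for 78 genes and a mean of at least 500 FPKM for 7. The 413 other genes of the class had a median of 166 FPKM. By level, the set held 59 of 230 class genes below 150 FPKM, which is 25.7%. The share was 19.0% between 150 and 200 FPKM, 19.5% between 200 and 300, 19.4% between 300 and 500, and 13.2% above 500 FPKM. Together the 113 genes held 3.33% of the summed mean FPKM of the table and 19.5% of that of the class. The median Z-score in Jack of all class genes was 1.27 below 150 FPKM and 0.94 above 500 FPKM.

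The genomic spans of the set were short. They ranged from 219 to 6243 bp with a median of 2130 bp, against 2483 bp for the other genes of the class and 4125 bp for all genes of the table. The upper quartile was 2717 bp in the set and 3688 bp in the other genes of the class. Only 2 of the 53 class genes longer than 5000 bp belonged to the set, which is 3.77%, whereas 28.3% of the class genes from 2000 to 3000 bp did. The set also held 21.3% of the class genes of at most 1000 bp, so that it was short mainly by the lack of long genes. The longest member, XLOC_049475 (chromosome 18, 62041251 to 62047493), reached 2.0987 in Jack. These differences in span were not tested.

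Members were found on all 20 chromosomes, from 3 genes on each of chromosomes 4, 9, 12 and 16 to 9 genes on chromosomes 5 and 19. As a share of the class genes, they ranged from 3 of 25 genes on chromosome 4 to 6 of 15 on chromosome 1. The outer 25% at either chromosome end held 90 of the 113 genes, or 79.6%, close to 80.6% of the other genes of the class and 78.2% of all genes on chromosomes. The middle stretch of each chromosome, between 40% and 60% of its length, held 2 members, or 1.77%, against 5.57% of the other class genes and 6.20% of all genes. This difference was not tested. A single pair of members was adjacent in gene order, XLOC_051808 and XLOC_050576 on chromosome 19, which start at 45992257 and 45999983 and had Z-scores of 2.08 and 2.05 in Jack. The genes were scattered and did not lie in a run. The spans of 2 members overlapped that of another gene, and since the library kit does not mark strand, reads of such genes cannot be assigned with certainty.

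M23 was the second highest line in 54 of the 113 genes, or 47.8%. R95-1705 followed with 17 genes, R02-6268F with 15, N0304-303-3 and R08-1450 with 10 each, and R05-4256 with 7, whereas FAM94 and R05-591 were second in 0 genes. Among the 136 other class genes that were also highest in Jack but below the minimum, M23 was second in 32.4%, N0304-303-3 in 18.4% and R05-4256 in 14.7%. The Z-score in M23 was above 0 in 95 of the 113 genes and had a median of 0.51, with a range from -0.72 to 1.31. Among the 25 genes that passed after subtraction of the class medians, M23 was second in 7. The class median of M23 was 0.34, so the subtraction itself lowers M23 in each gene. Neither the place of M23 nor its difference from the other class genes was tested.

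The lowest line was R05-591 in 44 genes, R08-1450 in 31 and FAM94 in 21, which together makes 96 of the 113 genes. The 413 other class genes had nearly the same shares for R05-591 and R08-1450, 34.6% and 28.3% against 38.9% and 27.4% of the members, and FAM94 was lowest in 8.47% of them against 18.6% of the members. R95-1705 was lowest in 6 members, R02-6268F in 5, N0304-303-3 in 4 and R05-4256 in 2, and M23 was lowest in 0. Among the 136 other class genes led by Jack, R08-1450 was lowest in 53 and R05-591 in 28, so the order of these lines differed there. FAM94 was lowest in 21 of the 136 genes, or 15.4%, which is near its share of the members. As the Z-scores of a gene sum to 0, a Z-score of 1.8 in Jack by itself puts the mean of the other 8 lines at -0.225, and in the members this mean had a median of -0.26. Beside this value, the medians of FAM94, R05-591 and R08-1450 were -0.68, -0.84 and -0.60, and they were below 0 in 112, 107 and 90 of the 113 genes. After subtraction of the class medians, R05-591 was lowest in 2 of the 25 genes that passed. The class median of R05-591 was -0.72, so the subtraction itself raises R05-591 in each gene. The exception in FAM94 was an unnamed gene, XLOC_033908, with a Z-score of 0.17. The most frequent combinations were M23 second with R08-1450 lowest, in 19 genes, and M23 second with R05-591 lowest, in 15 genes.

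**Figure D3:**
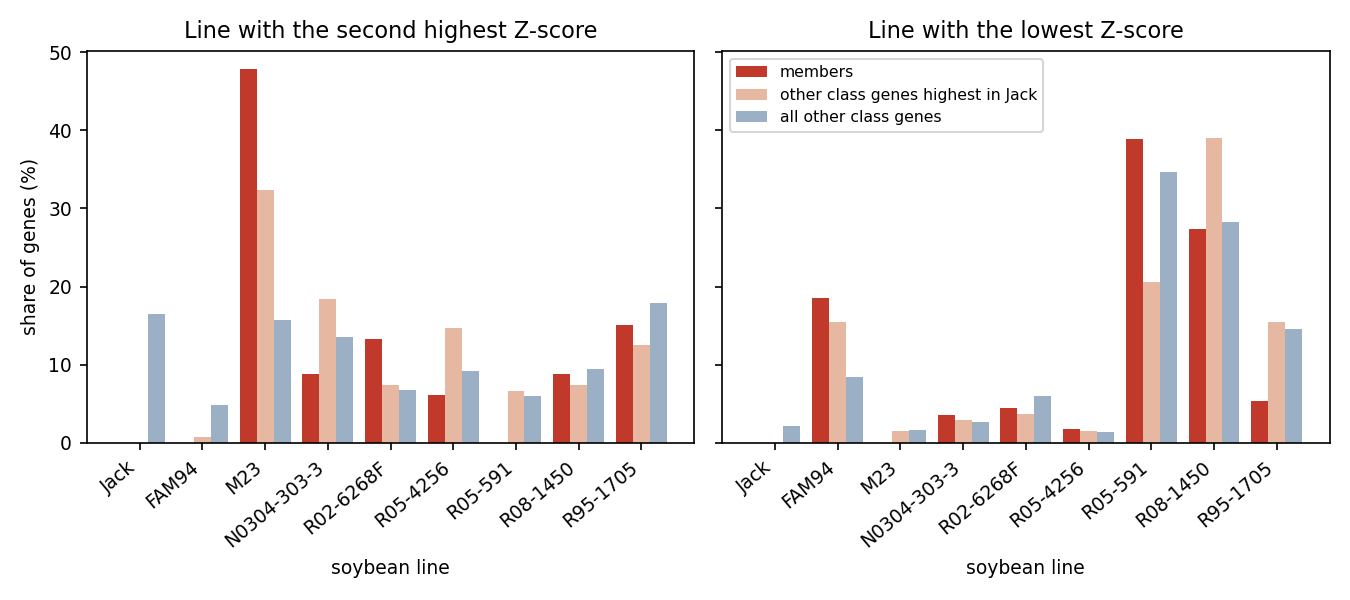
Share of genes (%) in which each line had the second highest Z-score (left) and the lowest Z-score (right), for the 113 members (red), the 136 other class genes highest in Jack (pale red) and all 413 other class genes (blue). M23 is second in 47.8% of the members, and R05-591 is lowest in 38.9% of them.

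The order of the 8 other lines was partly shared among the members. When the Z-scores were computed again over the 8 lines without Jack, the median was 1.14 in M23, -0.89 in R05-591, -0.65 in FAM94 and -0.55 in R08-1450, and lay from 0.09 to 0.25 in the remaining 4 lines. In the 136 other class genes led by Jack, the medians were 0.84 in M23, -0.25 in R05-591, -0.60 in FAM94 and -0.85 in R08-1450. A high M23 and a low FAM94 and R08-1450 were therefore not particular to the members. Pairs of members had a median correlation of 0.43 over these 8 lines, with quartiles of 0.17 and 0.64, and pairs of the other class genes had 0.14. These correlations rest on the same 8 libraries and describe them only. No correlation was computed for the 136 genes led by Jack alone, so the difference is not shown to be particular to the members.

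The ribosomal genes of the set are described first by the small subunit, whose protein names 10 of the 15 annotations hold. For Glyma02g11540 the annotation names only a fold superfamily, which also includes proteins outside the ribosome. Glyma10g40461, annotated as ribosomal protein S14p/S29e, was the most abundant member at a mean of 983 FPKM. It occupies 47878677 to 47883737 on chromosome 10. Its Z-score was 2.09 in Jack, 0.48 in M23, 0.43 in R02-6268F, 0.12 in N0304-303-3, 0.01 in R05-4256, -0.11 in R05-591, -0.83 in R95-1705, -0.92 in R08-1450 and -1.28 in FAM94. Jack therefore stood 1.62 above the next line, nearly as far as that line stood above the lowest. Its span overlaps that of another gene.

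Glyma20g30970, annotated as S13/S18, a protein of the head of the small subunit, occupies 39625845 to 39627903 on chromosome 20, and its mean level was 731 FPKM. The Z-score was 2.24 in Jack, 0.87 in M23, 0.02 in R02-6268F, -0.14 in N0304-303-3, -0.16 in R95-1705, -0.49 in R05-4256, -0.61 in FAM94, -0.72 in R05-591 and -1.02 in R08-1450. Besides Jack, M23 was clearly above the other 7 lines in this gene.

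Glyma02g09370, annotated as ribosomal protein S5, had the highest Z-score in Jack among the named genes and the largest step to the next line in the set. It lies on chromosome 2 from 7339271 to 7341100 with a mean of 116 FPKM. The Z-score was 2.34 in Jack, 0.29 in R95-1705, 0.11 in M23, -0.0048 in N0304-303-3, -0.09 in R02-6268F, -0.38 in R05-4256, -0.42 in FAM94, -0.47 in R05-591 and -1.37 in R08-1450. The 7 lines between Jack and R08-1450 were close to each other, and the step from Jack to the second line was 2.05.

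Glyma02g05370, annotated as the small subunit protein RPS4A, lies on chromosome 2 from 4344417 to 4346972, with a mean of 140 FPKM. Its Z-score was 2.32 in Jack, 0.42 in R95-1705, 0.07 in M23, 0.06 in N0304-303-3, -0.16 in R02-6268F, -0.30 in R05-4256, -0.56 in FAM94, -0.57 in R08-1450 and -1.29 in R05-591. Glyma04g33900 on chromosome 4 (39680148 to 39682340) and Glyma05g01180 on chromosome 5 (745078 to 746705) share the annotation ribosomal protein S4. Their means were 168 and 151 FPKM, and their Z-scores in Jack were 2.28 and 2.18. Both were lowest in R05-591, with -1.09 and -1.43, as was the S8e gene Glyma03g21710 with 2.24 in Jack and -1.32 in R05-591.

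The other 3 genes with such names were Glyma02g11540, Glyma02g40660 and Glyma01g41810. Glyma02g11540, annotated with the S5 domain 2-like fold, had a mean of 192 FPKM and a Z-score of 2.05 in Jack, with 0.78 in R02-6268F as the next value and -1.22 in R95-1705 as the lowest. The S26e gene Glyma02g40660 had a mean of 125 FPKM and Z-scores of 2.07 in Jack, 0.81 in M23 and -1.12 in FAM94. The S30 gene Glyma01g41810, which lies on chromosome 1 from 53217866 to 53219017, had 2.02 in Jack, 0.66 in R95-1705 and -1.33 in R05-591. All of them stood at least 1.26 above the second line.

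The large subunit was represented by 4 genes. Glyma01g05740, annotated as L34e, had a mean of 175 FPKM and Z-scores of 2.05 in Jack, 0.76 in M23 and -1.10 in N0304-303-3. The L6 gene Glyma05g31760 had the smallest step among the ribosomal genes, from 2.04 in Jack to 1.09 in M23. Glyma01g37250 encodes a protein of the L2 family, which lies near the catalytic centre of the ribosome, and had Z-scores of 2.26 in Jack, 0.50 in R02-6268F and -0.93 in R05-591. Glyma04g06700 encodes L39, a very small protein at the tunnel through which the new polypeptide leaves. It had the lowest mean of the named genes, 102 FPKM, over a span of 731 bp on chromosome 4, with Z-scores of 2.16 in Jack, 0.65 in M23 and -1.23 in R08-1450. The remaining ribosomal gene, Glyma02g00540, belongs to the L7Ae/L30e/S12e family, which holds proteins of both subunits, and had 2.05 in Jack, 0.999 in M23 and -1.17 in R08-1450.

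Within the 15 ribosomal genes, M23 was above 0 in 15 genes, and FAM94, R05-591 and R08-1450 were each below 0 in 15. M23 was second in 8 of them, R95-1705 in 4 and R02-6268F in 3. R05-591 was lowest in 6 and R08-1450 in 4. Reads with more than 1 location in the genome were removed by the authors, so for genes with a nearly identical copy the counted fragments come from the parts that differ, and the values of single copies are uncertain.

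Ribosomal genes with a high Z-score in Jack also occurred below the level of the set. In the source used for chromosomes 1 to 5 and the start of chromosome 6, 47 genes had an annotation with ribosomal words, a few of them for organelle ribosomes, and 32 of these had their largest deviation as an increase in Jack. The source holds only genes with a Z-score past 2 in size in some line. Of the 32 genes, 13 are members and 19 had a mean below 100 FPKM, from 0.667 to 91.9 FPKM with a median of 65.8 FPKM. None of the 47 genes had its largest deviation as a reduction in Jack. R08-1450 was the line of 8 genes, 5 increased and 3 reduced, and each of the other lines of 0 to 2 genes. Over all 1998 genes of this source, at any level, the deviations in Jack were almost balanced, with 193 increased and 172 reduced. Over the whole table, the direction in Jack varied with level. By the minimum Z-score of the set, 2.22% of the genes of 1 to 10 FPKM were increased in Jack. By a Z-score of the same size below 0, 5.91% were reduced. The shares were 6.79% and 2.61% at 10 to 100 FPKM, and 20.9% and 0.73% at 100 to 1000 FPKM. The part of level in the ribosomal counts was not tested.

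A few ribosomal genes of comparable level were outside the set. Glyma05g27570, which encodes the large subunit protein L38, had a mean of 872 FPKM and was highest in M23 with a Z-score of 1.75, followed by Jack with 1.45. Glyma08g11040, a ribosome-associated membrane protein of the endoplasmic reticulum, had 662 FPKM and Z-scores of 1.52 in Jack and 1.33 in M23. In both genes Jack and M23 were the 2 highest lines. Glyma01g00740, which encodes the large subunit protein L31e, averaged 107.6 FPKM and differed from them, with Z-scores of 1.36 in M23, 0.85 in R02-6268F and 0.37 in Jack, and the lowest in R08-1450 at -2.22.

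**Figure D4:**
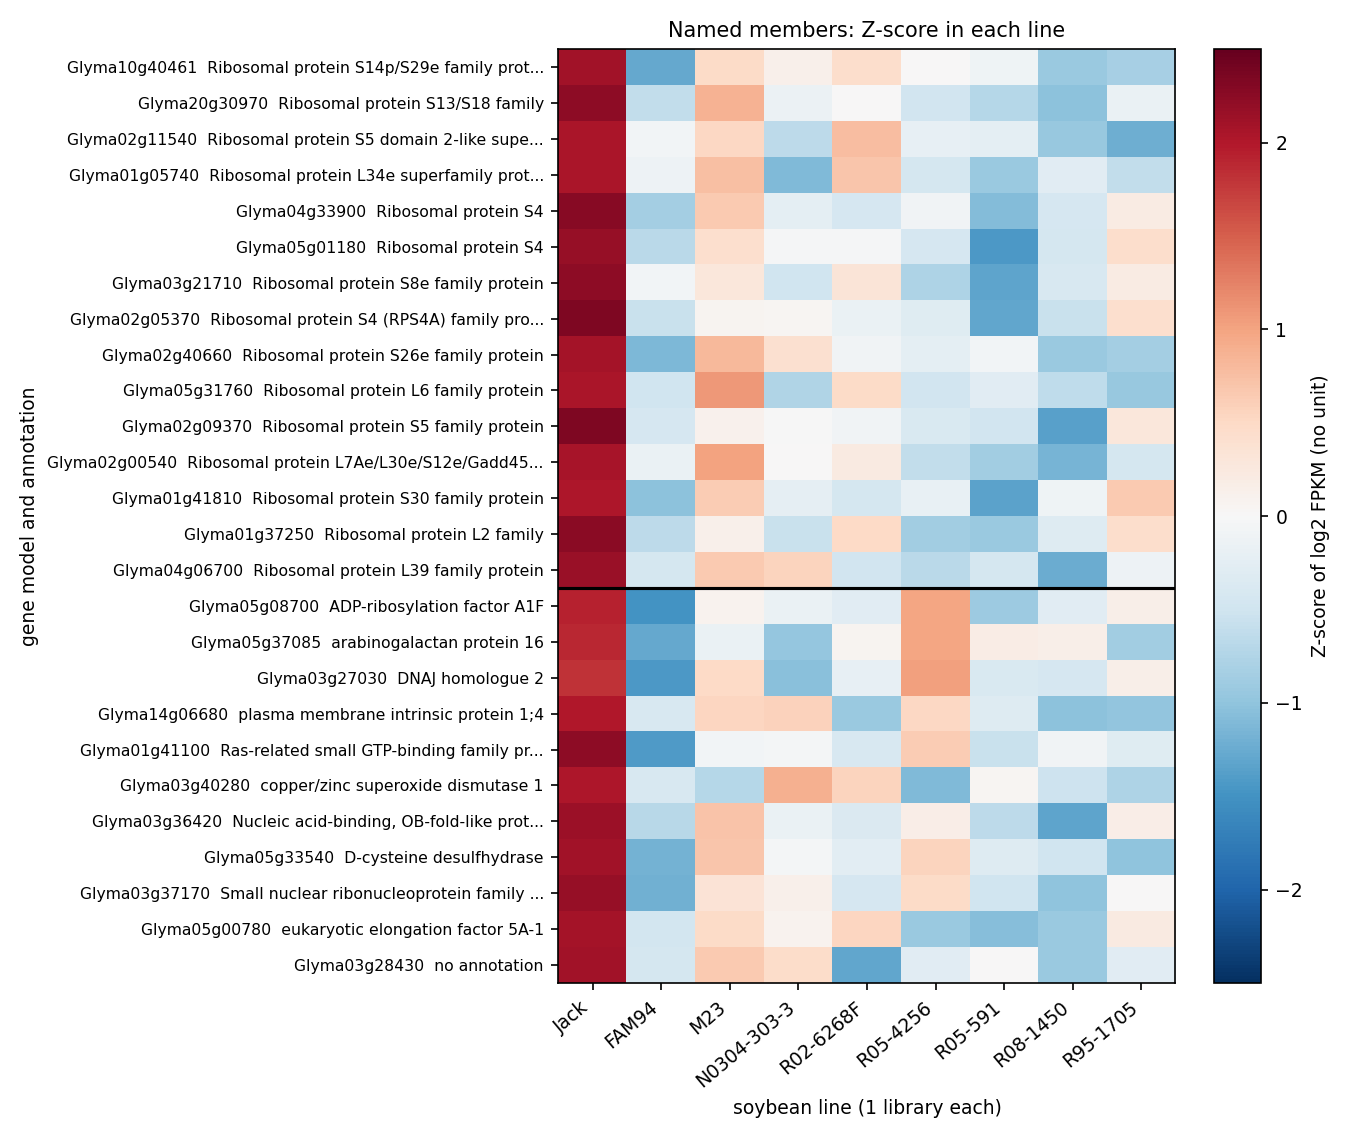
Z-score of log2 FPKM (colour, no unit) in each of the 9 lines for the 26 named members, with the 15 ribosomal genes above the black line and the 11 others below it, each ordered by mean FPKM. Jack is the darkest red column in every row, and R05-4256 is blue or white in the ribosomal rows and red in 8 of the 11 other rows.

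The single translation factor of the set was Glyma05g00780, annotated as the elongation factor 5A-1, which helps ribosomes through difficult peptide stretches. It had a mean of 128 FPKM and Z-scores of 2.08 in Jack, 0.53 in R02-6268F and -1.06 in R05-591. Glyma03g37170 encodes a small nuclear ribonucleoprotein of the splicing machinery, and Glyma03g36420 was annotated only as a nucleic acid-binding protein with an OB-like fold. They had 2.17 and 2.15 in Jack, with FAM94 lowest in the former at -1.21 and R08-1450 lowest in the latter at -1.32.

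Small GTP-binding proteins were encoded by 2 of the named genes. Glyma05g08700 encodes ADP-ribosylation factor A1F, which recruits vesicle coats at the Golgi, and averaged 961 FPKM (chromosome 5, 8590119 to 8594888). Its Z-score was 1.93 in Jack, 0.99 in R05-4256, 0.14 in R95-1705, 0.09 in M23, -0.17 in N0304-303-3, -0.28 in R08-1450, -0.29 in R02-6268F, -0.91 in R05-591 and -1.50 in FAM94. Glyma01g41100, a Ras-related GTP-binding protein (chromosome 1, 52633886 to 52637629), averaged 474 FPKM. Its Z-score was 2.24 in Jack and 0.63 in R05-4256, and the lowest was -1.42 in FAM94. In both genes the order was Jack, then R05-4256, with FAM94 at the bottom.

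The same ends of the order occurred in the arabinogalactan protein gene Glyma05g37085, which encodes a cell surface glycoprotein, and in Glyma03g27030, a DNAJ co-chaperone. Their means were 770 and 769 FPKM. Glyma05g37085 had Z-scores of 1.89 in Jack, 0.996 in R05-4256 and -1.29 in FAM94, and Glyma03g27030 had 1.8001, 1.02 and -1.43. In the whole set R05-4256 was second and FAM94 lowest in 5 genes, and all 5 were among the 26 named genes. The Z-score in R05-4256 was above 0 in 8 of the 11 named genes that were not ribosomal, with a median of 0.53, and in 1 of the 15 ribosomal genes, with a median of -0.42. In FAM94 the medians were -1.18 and -0.56. This division by R05-4256 was noticed in the data after the values were seen and was not tested, and the more abundant named genes come from a list chosen by level.

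Of the last 4 named genes, 3 encode a transport protein or an enzyme. Glyma14g06680 encodes the plasma membrane intrinsic protein 1;4, an aquaporin, with a mean of 619 FPKM and Z-scores of 1.99 in Jack, 0.58 in N0304-303-3 and -1.02 in R08-1450. Glyma03g40280 encodes copper/zinc superoxide dismutase 1, which removes superoxide, and had a mean of 269 FPKM. It differed from most members in that M23 was below 0, at -0.72, with 2.03 in Jack, 0.89 in N0304-303-3 and -1.11 in R05-4256. Glyma05g33540, annotated as D-cysteine desulfhydrase, an enzyme that releases sulfide from D-cysteine, had 157 FPKM and Z-scores of 2.0952 in Jack, 0.68 in M23 and -1.18 in FAM94. Glyma03g28430 had no annotation, spanned 291 bp and had 2.11 in Jack and -1.29 in R02-6268F.

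The 87 members without a name had Z-scores in Jack from 1.8001 to 2.46 with a median of 2.01. The highest of the set was XLOC_042473 on chromosome 16 from 30538397 to 30539732, with a mean of 156 FPKM. Its Z-score was 2.46 in Jack, 0.55 in R05-4256, -0.15 in R08-1450, -0.24 in N0304-303-3, -0.25 in M23, -0.44 in FAM94, -0.46 in R02-6268F, -0.60 in R05-591 and -0.87 in R95-1705. XLOC_019007 on chromosome 8 (2449463 to 2450383, 319 FPKM) followed among the unnamed genes with 2.34 in Jack and 0.65 in M23. The most abundant unnamed member was also the shortest, XLOC_028193, with 562 FPKM over 219 bp on chromosome 10 from 48386192 to 48386410. It had Z-scores of 2.27 in Jack, 0.52 in N0304-303-3, 0.51 in M23 and -0.92 in R02-6268F.

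M23 was second in 43 of the 87 unnamed genes, R95-1705 in 13, R02-6268F in 11, R08-1450 in 10, N0304-303-3 in 8 and R05-4256 in 2. R08-1450 was above 0 in 22 of these genes, in 1 of the 11 other named genes and in 0 of the 15 ribosomal ones. The unnamed genes may include ribosomal ones, since the main source of names was used only to the start of chromosome 6. That source also required a Z-score past 2, so named and unnamed members passed unlike filters. Among the 87 unnamed genes, R05-591 was lowest in 37, R08-1450 in 25 and FAM94 in 13. The Z-score in R05-4256 had a median of -0.19 and was below 0 in 56 of the 87 genes. The least separated member was XLOC_040915 on chromosome 15 from 7986180 to 7989651, with 1.92 in Jack and 1.26 in R02-6268F, a step of 0.66.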

How the data were processed

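Whole seeds of 9 soybean lines were sequenced, with 1 library per line. According to the methods and the submitters' processing notes, the authors trimmed paired-end reads and aligned them with TopHat 1.4.0 and Bowtie 0.12.8 to the Williams 82 genome and dropped reads that aligned to several places. FPKM came from Cufflinks and Cuffdiff, both 2.1.1. The deposited table holds the authors' mean FPKM of each gene over all 9 lines. It also holds a score per line (Z-score), which the authors computed from the log2 of FPKM before they deposited it. Coordinates follow the table. The table holds no FPKM per line, no counts and no gene names. All 9 score columns were used.

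Gene models and annotations were taken from the study's tables by span (1998 of 1998 genes used, the table being read up to the start of chromosome 6) or by mean FPKM (100 of 100 abundant genes and 268 of 270 genes with a large fold change). Matching allowed a relative difference of 1e-05, and no other value was taken from them. RefSeq's table for Glycine_max_v4.0 paired none of these gene models. Genes were placed in lists by annotation words. The text names members found in the table of abundant genes, members named by span whose annotation has no ribosomal words, and the members at the extremes of level, Z-score and span. Of the ribosomal members named by span, the rule took the 8 with the highest mean, the 4 with the highest Z-score in Jack and the 4 with the shortest span. The remaining ribosomal members and other single genes were named after their values were seen. The members and lists were chosen with earlier results of these data known. No sequence was printed.

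Lines were compared by description, without tests. The alternatives were a Z-score of 2, a mean of 50 FPKM, no minimum span or 500 bp, Z-scores over the 8 lines without R08-1450, and subtraction of line medians. The code of the selection was checked on simulated data, which is no test of the genes chosen. Python 3.11.15, NumPy 2.4.6, pandas 2.3.3, SciPy 1.17.1 and Matplotlib 3.10.9 were used.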

Additional observations from a re-analysis of the deposited data

How the results depend on the processing

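With a Z-score of at least 2 in Jack, 68 genes were found, with a median Z-score of 2.15, R08-1450 lowest in 19 and second in 4. With a mean of at least 50 FPKM, 219 genes were found, with R08-1450 lowest in 51 and second in 21. Over the 8 lines without R08-1450, 107 genes passed, of which 96 were among the 113, and the median Z-score was 1.99. With the median of each line over all genes subtracted, 124 genes passed and included all 113. With the median over the abundance class subtracted, an alternative chosen after seeing the data, 25 genes passed, with a median Z-score of 1.97, a median span of 1628 bp, R08-1450 lowest in 10 and second in 3. M23 was second in 7 of these 25 genes and R05-591 lowest in 2, against 54 and 44 of the 113. The medians subtracted were 0.34 in M23 and -0.72 in R05-591, so the operation itself lowers M23 and raises R05-591 in each gene. How far this accounts for the change was not tested. Without a minimum span 114 genes and with a minimum of 500 bp 111 genes passed. No paired analysis was possible because each line had 1 library. No counting error could be given, since the table holds no counts.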
